A study of Homo sapiens with 9 samples.

Results

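The regulators of the nephric lineage described here were 9 of the 60708 genes in the count tables. They were PAX2, PAX8, WT1, SALL1, OSR1, EYA1, GDNF, SIX2 and LHX1, found by matching each gene identifier to its symbol, and all 9 had a count in at least 1 library. They were measured by RNA sequencing in 3 libraries of wild-type cells (WT) and 3 from each of 2 clones labelled SNAI1-KO, CS16 and CS19. The study describes all of these cells as MDA-MB-231, a human triple-negative breast cancer line of mesenchymal basal character. SNAI1 encodes Snail, a zinc finger repressor that drives the epithelial to mesenchymal transition. By the study's methods, each clone grew from a single cell given Cas9, pooled guides against SNAI1 and repair plasmids carrying puromycin resistance. A clone is thus 1 line, and its 3 libraries are not independent editing events. All 9 libraries came from untreated cells in the same serum medium, and total RNA was sequenced after removal of ribosomal RNA. The labels do not say whether replicates were separate cultures, so p-values measure the spread between these libraries, which may be technical.

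In the embryo, OSR1 marks the intermediate mesoderm, PAX2, PAX8 and LHX1 are used in the nephric duct it gives rise to, and EYA1, SIX2, SALL1 and WT1 act in the metanephric mesenchyme, where SIX2 holds nephron progenitors in an undifferentiated state. The mesenchyme secretes GDNF, which binds GFRA1 and the receptor tyrosine kinase RET on the ureteric bud and draws the bud into branching. Progenitors that leave the SIX2 state pass through the renal vesicle under WNT4, where PAX8 and LHX1 are used again, and end as podocytes and tubule cells. Several of the regulators also act outside the kidney, PAX8 in the thyroid, SALL1 and EYA1 in limb and ear, and WT1 in the gonad.

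The libraries held between 19527195 and 28627777 counted read pairs, and a floor of 3 counts corresponded to 0.0984 to 0.172 counts-per-million (CPM). SNAI1, the targeted gene, was not lower in the clones, with counts of 16, 38 and 21 in WT, 26, 40 and 49 in CS16 and 57, 94 and 94 in CS19 (log2 fold change 0.89 ± 0.42 SE, adjusted p = 0.0838, the quasi-likelihood F test of edgeR, adjusted over all genes by the Benjamini-Hochberg method). The count over the whole gene does not read the edited bases. By other measures, the study reports lower mRNA at each SNAI1 exon by RT-qPCR and no detectable protein in both clones. It also reports deletions at the locus in the aligned reads. The clones are named below as the libraries labelled CS16 and CS19. A gene was called changed when its log2 fold change was at least 2 in size and its adjusted p was below 0.05, which held for 26.9% of the 19631 genes tested in the 6 clone libraries against WT (12.6% higher and 14.3% lower). Of 15 markers of mesenchymal basal breast lines, 13 were called lower and 1 higher in the clones, and the summed level of the list ran from 12780 to 15680 CPM in WT and from 606.2 to 771.9 CPM in the clones. CD44 had 11142 to 13853 counts in WT and 0 to 2 in the clones, and S100A6 had 48439 to 112919 counts in WT and 0 or 1 in the clones. CD44 and S100A6, picked from this list after their values were seen, were thus at or near 0 in the libraries labelled CS16 and CS19. The list as a whole was not at 0, and the intermediate filament gene VIM had 922.2 CPM in WT and 321.9 CPM in the clones on average. In a fit with no filter, the log2 fold change was -2.33 for MSN, -3.62 for FN1 and 6.27 for SPARC, the 1 marker called higher. At 9p21, CDKN2A, CDKN2B and MTAP were at 0 in every WT library and at a summed level of 164.4 to 182.2 CPM in the clones. The part of these features in the results below was not tested, and clone, editing and cell identity cannot be told apart in this design. WT replicate 2 stood apart from the other WT libraries, where chi-square divided by its degrees of freedom was 220.9 and 270.9, compared with 16.9 between WT replicates 1 and 3. The calls of regulators and listed genes over both clones are therefore also given without WT replicate 2 where they changed.

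Since SNAI1 binds the E-box CAGGTG, the proximal promoters of the regulators are shown with the E-boxes they hold. RefSeq promoter windows (build GRCh38.p14, 250 bases before a transcript start) were matched for 5 of the 9 genes, PAX2, PAX8, WT1, GDNF and SIX2, giving 12 windows, several of them for alternative starts of 1 gene. CAGGTG or its reverse complement CACCTG was found in 0 of the 12 windows, compared with 17.5% of 35116 windows of the same length over all genes. The looser motif CANNTG, which reads the same on both strands and includes CAGGTG, was found in 6 of the 12 windows, compared with 61.8% over all genes. Such a match or its lack describes these letters only. The windows of PAX8, WT1 and SIX2 are shown because these genes are the ones whose level fell, stayed close and varied within WT, respectively. They are written 5′ to 3′ on the strand of the gene, with CANNTG matches in capitals. PAX8 is at chr2:113278922-113279171 (minus strand), WT1 at chr11:32435565-32435789 (minus strand, 225 bases, ending before the annotated gene) and SIX2 at chr2:45009453-45009702 (minus strand).
PAX8: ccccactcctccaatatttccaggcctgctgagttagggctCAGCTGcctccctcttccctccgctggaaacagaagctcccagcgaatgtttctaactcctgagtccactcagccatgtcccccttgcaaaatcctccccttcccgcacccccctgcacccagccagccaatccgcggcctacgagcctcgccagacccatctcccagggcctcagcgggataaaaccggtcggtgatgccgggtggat
WT1: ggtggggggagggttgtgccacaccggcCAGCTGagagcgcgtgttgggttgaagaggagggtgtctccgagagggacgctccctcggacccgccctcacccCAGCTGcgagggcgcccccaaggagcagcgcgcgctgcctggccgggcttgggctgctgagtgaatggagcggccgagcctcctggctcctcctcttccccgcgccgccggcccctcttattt
SIX2: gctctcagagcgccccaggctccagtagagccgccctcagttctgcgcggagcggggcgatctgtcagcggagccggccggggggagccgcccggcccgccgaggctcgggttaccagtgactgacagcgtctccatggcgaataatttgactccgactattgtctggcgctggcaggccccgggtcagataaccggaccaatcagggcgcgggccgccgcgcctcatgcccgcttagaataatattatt
PAX8 held 1 match, which began 209 bases before the start. WT1 held 2, beginning 197 and 123 bases before the end of the window, and SIX2 held none.

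In the 6 clone libraries against WT, 7 of the 9 regulators had enough counts to be tested and 5 of these were called, SALL1, EYA1 and LHX1 higher and OSR1 and PAX8 lower. Over all genes tested, 26.9% were called, 12.6% higher and 14.3% lower. SALL1 and LHX1 passed the count filter through the clone libraries alone, and OSR1 and PAX8 through the WT libraries alone. Each of these could thus be called only in the direction found, and the count of calls describes these regulators only. The same 5 regulators were called in the same directions in CS16 against WT, where 27.1% of all genes tested were called, and in CS19 against WT, where 26.4% were called. These comparisons share the WT libraries. The log2 fold changes of the 7 tested regulators went both ways, and their median, 1.01, was the value of SIX2 itself, which became 2.17 without WT replicate 2; the median over all genes tested was -0.004. WT1 and SIX2 were tested and not called, and PAX2 and GDNF had too few counts for the test. In such bulk RNA, a smaller number of expressing cells and less RNA per cell cannot be told apart.

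**Figure D1:**
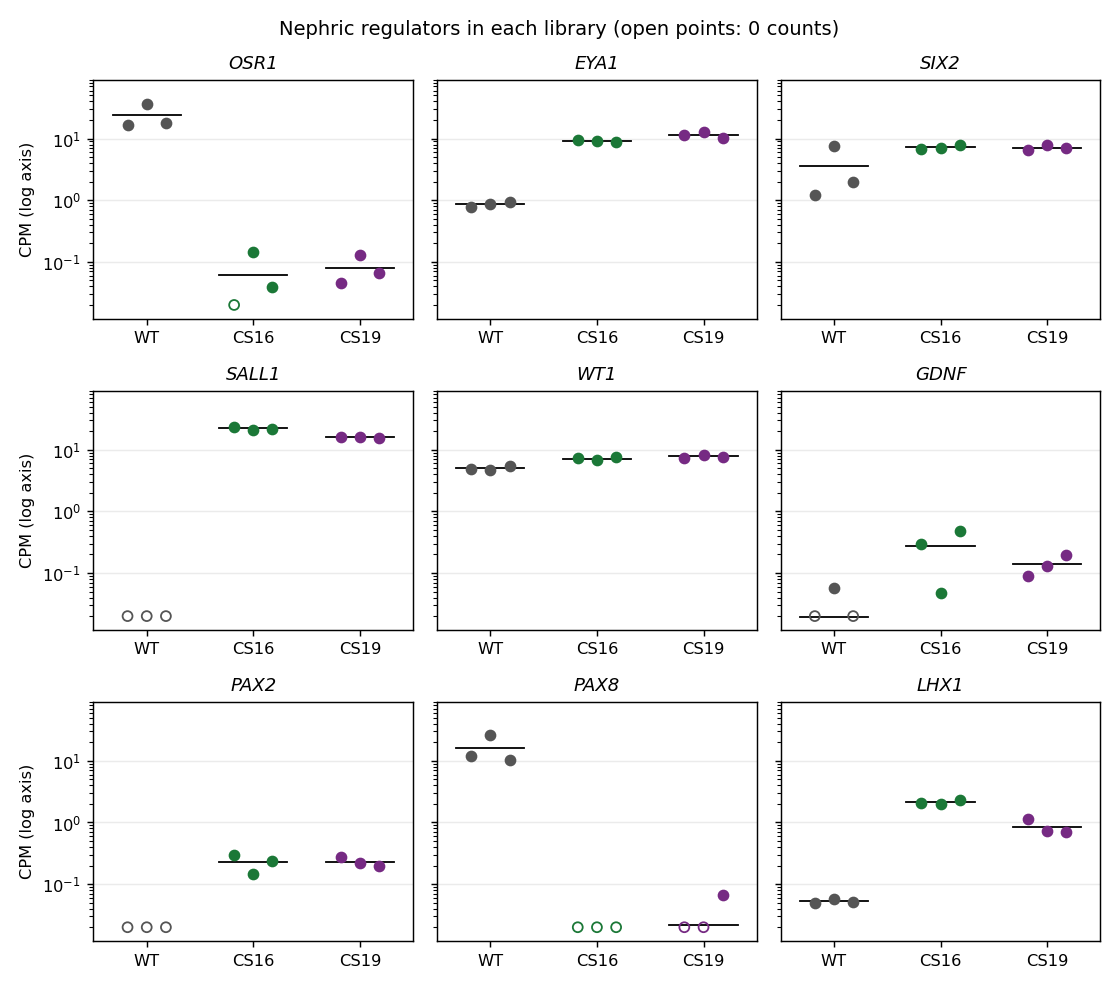
Each point is 1 library, plotted as CPM on a log axis, for the WT, CS16 and CS19 groups, with the group mean as a line and open points at the bottom for libraries with 0 counts. SALL1 and PAX2 were at 0 in all 3 WT libraries, PAX8 was at 0 in 5 of the 6 clone libraries, and for SIX2 WT replicate 2 lay among the clone libraries.

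OSR1, the odd-skipped zinc finger factor that comes first in this series of genes (chr2:19351485-19358623, minus strand), had 339, 646 and 347 counts in WT, 0, 3 and 1 in CS16 and 1, 3 and 2 in CS19. All 6 clone libraries lay at or below the floor of 3 counts, and every WT library lay far above it. The mean level was 23.9 ± 11.4 CPM (SD, n = 3) in WT, 0.0611 ± 0.0740 in CS16 and 0.0805 ± 0.0443 in CS19. The log2 fold change was -8.29 ± 0.44 (SE, adjusted p = 2.033e-08, edgeR). No annotated gene overlapped the OSR1 exons.

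PAX8, a paired box factor of the nephric duct, renal vesicle and thyroid (chr2:113215997-113278921, minus strand), had 244, 452 and 202 counts in WT, 0 in each CS16 library and 0, 0 and 2 in CS19. The mean level was 16.1 ± 8.49 CPM (SD, n = 3) in WT, and 1 clone library of 6 held any read pair. PAX8 thus fell together with OSR1, and in both genes WT replicate 2 was the highest library. With 2 counts in all 6 clone libraries against 898 in WT, the ratio of WT to clone level was 1114 (95% interval 307.6 to 9216, counting error only, without molecular identifiers), and against CS16, which was at 0, PAX8 in WT was at least 117.8-fold higher, taking a floor of 3 counts in each library. The log2 fold change in CS19 against WT was -8.95 ± 0.77 (SE, adjusted p = 6.262e-05, edgeR). Without WT replicate 2, the fitted log2 fold changes over all clone libraries were -9.17 for PAX8 (adjusted p = 1.066e-08, edgeR) and -7.84 for OSR1 (adjusted p = 3.51e-09, edgeR).

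The PAX8 count carries a limit of annotation. PAX8-AS1, a long noncoding RNA on the opposite strand, shares 1651 exon bases, 22.4% of the PAX8 exon length, and pairs were counted without using strand. PAX8-AS1 had 2342, 1896 and 2200 counts in WT and 0 to 12 in the 6 clone libraries (log2 fold change -9.14, adjusted p = 5.637e-09, edgeR). Pairs touching the bases shared by both genes were not counted, which lowers both counts, and both genes fell. The order of the libraries differed, since WT replicate 2 was the highest for PAX8 and the lowest for PAX8-AS1.

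PAX2, the paired box factor nearest to PAX8 in role, which marks the nephric duct and the condensing mesenchyme (chr10:100735396-100829944, plus strand), had 0 counts in every WT library, 6, 3 and 6 in CS16 and 6, 5 and 6 in CS19. The groups did not overlap, and 5 of the 6 clone libraries were above the floor of 3 counts and 1 was at it. Clone levels of 0.226 ± 0.0765 CPM (SD, n = 3) in CS16 and 0.229 ± 0.0396 in CS19 put PAX2 at least 1.44-fold higher over the 6 clone libraries than the WT floor of 3 counts in each library. PAX2 did not pass the low-count filter. With no filter its adjusted p was 0.00143 over both clones, 0.0104 in CS16 and 0.00859 in CS19 (edgeR).

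LHX1, a LIM homeobox factor of the duct and renal vesicle (chr17:36936785-36944612, plus strand), had 1 count in each WT library, 42, 41 and 58 in CS16 and 25, 17 and 21 in CS19. All 6 clone libraries lay above WT, and all 3 CS16 libraries lay above all 3 CS19 libraries in CPM. The mean level was 0.0527 ± 0.00404 CPM (SD, n = 3) in WT, 2.11 ± 0.181 in CS16 and 0.855 ± 0.247 in CS19. The ratio of clone to WT level was 27.4 (95% interval 9.24 to 134, counting error only). The log2 fold change was 5.21 ± 0.40 (SE, adjusted p = 3.999e-05, edgeR) in CS16 and 3.91 ± 0.50 (SE, adjusted p = 4.395e-04, edgeR) in CS19. Thus of the duct factors PAX8 was called lower and LHX1 higher, and PAX2 was detected in the clones alone at a few counts.

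SALL1, a zinc finger factor of the metanephric mesenchyme that is needed for ureteric bud ingrowth (chr16:51135975-51151367, minus strand), had 0 counts in all 3 WT libraries, 481, 441 and 542 in CS16 and 350, 375 and 480 in CS19. SALL1 thus went from no read pair in WT to at least 350 in each clone library. The mean level was 22.1 ± 1.34 CPM (SD, n = 3) in CS16 and 16.0 ± 0.278 in CS19. Against the floor of 3 counts in each WT library, SALL1 was at least 139.8-fold higher in CS16 and at least 101.1-fold higher in CS19. Its adjusted p over all 6 clone libraries was 4.632e-08 (edgeR), and no size is read from the fitted fold, which depends on the prior count. Both antisense RNAs annotated across SALL1 shared 0 exon bases with it.

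EYA1, a transcriptional coactivator with phosphatase activity that works with SIX2 (chr8:71197433-71592025, minus strand), had 16, 15 and 18 counts in WT, 195, 191 and 217 in CS16 and 251, 296 and 308 in CS19. EYA1 was already present in WT, unlike SALL1, and the WT libraries lay close together at 0.858 ± 0.0673 CPM (SD, n = 3). The clones reached 9.12 ± 0.464 CPM in CS16 and 11.5 ± 1.38 in CS19. The log2 fold change was 3.43 ± 0.24 (SE, adjusted p = 2.546e-05, edgeR) in CS16 and 3.77 ± 0.24 (SE, adjusted p = 1.697e-05, edgeR) in CS19. Noncoding RNAs on the opposite strand share 3.72% and 2.21% of the EYA1 exon bases and had 0 to 12 counts in any library.

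SIX2, the homeobox factor of self-renewing nephron progenitors (chr2:45005182-45009452, minus strand), had 25, 133 and 38 counts in WT, 138, 148 and 196 in CS16 and 142, 181 and 217 in CS19. In CPM, WT replicates 1 and 3 stood at 1.24 and 1.95, WT replicate 2 at 7.61, and the 6 clone libraries between 6.47 and 7.86. WT replicate 2 therefore lay inside the range of the clones, and the other WT libraries lay below it. Over all libraries the log2 fold change was 1.01 ± 0.45 (SE, adjusted p = 0.0724, edgeR) and SIX2 was not called. Without WT replicate 2 it was 2.17 (adjusted p = 5.492e-06, edgeR) over both clones, 2.18 (adjusted p = 7.138e-07, edgeR) in CS16 and 2.18 (adjusted p = 1.257e-07, edgeR) in CS19, and SIX2 was called higher in all 3 comparisons. The call of SIX2 was thus decided by 1 library, and then 6 of the 7 tested regulators were called.

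WT1, the zinc finger factor of the mesenchyme and the podocyte named for Wilms tumour (chr11:32387775-32435564, minus strand), had 100, 81 and 106 counts in the WT libraries, 148, 142 and 189 in CS16 and 160, 192 and 235 in CS19. WT1 had the smallest fold change of the 7 tested regulators, at 5.01 ± 0.412 CPM (SD, n = 3) in WT, 7.20 ± 0.378 in CS16 and 7.78 ± 0.530 in CS19. The groups did not overlap. The log2 fold change over both clones was 0.58 ± 0.17 (SE, adjusted p = 0.0101, edgeR), which passed the p threshold, as 63.7% of all genes tested did, and not the fold threshold. In CS16 the adjusted p was 0.0509 and in CS19 it was 0.0257 (edgeR). WT1-AS, an antisense RNA that shares 47 bases or 0.578% of the WT1 exons, had 0 counts in every WT library and 7 to 33 in the clones (adjusted p = 0.000431, edgeR).

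GDNF, the secreted ligand of the bud receptor (chr5:37812677-37840041, minus strand), had 0, 1 and 0 counts in WT, 6, 1 and 12 in CS16 and 2, 3 and 6 in CS19. The CS16 libraries overlapped WT, the CS19 libraries did not, and 5 of the 6 clone libraries lay above every WT library. The ratio of clone to WT level was 12.1 (95% interval 2.01 to 493.1, counting error only), from 30 counts against 1. GDNF did not pass the low-count filter. With no filter its adjusted p was 0.0236 over both clones, 0.0242 in CS16 and 0.135 in CS19 (edgeR). GDNF-AS1 on the opposite strand shares 14.7% of the GDNF exon bases and had 0 to 3 counts in any library.

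**Figure D2:**
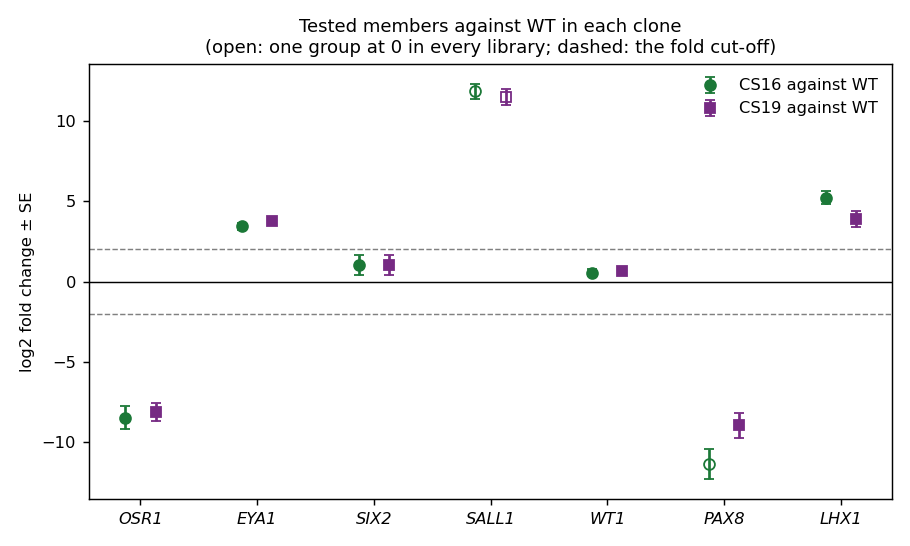
Points are log2 fold changes of the 7 tested regulators against WT in CS16 (circles) and CS19 (squares), with bars of 1 SE and dashed lines at the fold threshold of 2 on the log2 scale. OSR1 and PAX8 lay below the lower line, EYA1, SALL1 and LHX1 above the upper line, and SIX2 and WT1 between the lines; open points mark a group at 0 in every library, whose position depends on the prior count.

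On a scale corrected for exon length (transcripts-per-million, TPM), the regulators took a different order in WT and in the clones. In WT the mean level of OSR1 was 14.8 ± 8.08 TPM (SD, n = 3), of PAX8 7.20 ± 4.30, of SIX2 5.41 ± 5.58, of WT1 1.97 ± 0.129 and of EYA1 0.294 ± 0.0216. The ranges of neighbours in this order overlapped from OSR1 through PAX8 and SIX2 to WT1, and WT1 lay above EYA1 in every library. LHX1 and GDNF followed at 0.0345 and 0.0142 TPM, with PAX2 and SALL1 at 0. In CS16 the level of SALL1 was 12.2 ± 2.31 TPM, of SIX2 10.2 ± 1.26, of EYA1 3.05 ± 0.500, of WT1 2.77 ± 0.449 and of LHX1 1.34 ± 0.222. The pairs SALL1 with SIX2 and EYA1 with WT1 overlapped in CS16, while SIX2 lay above EYA1 and WT1 above LHX1 in every library. In CS19 the level of SIX2 was 9.85 ± 1.64 TPM, of SALL1 8.58 ± 0.982, of EYA1 3.76 ± 0.805, of WT1 2.91 ± 0.421 and of LHX1 0.531 ± 0.172, with the same 2 pairs overlapping. OSR1 and PAX8 had the highest means in WT and the lowest in both clones, at 0.0325 and 0 TPM in CS16 and 0.0472 and 0.00803 TPM in CS19. The bottom places were not separated, since the range of OSR1 overlapped that of PAX2 in CS16 and that of GDNF in CS19. PAX2 and GDNF had means of at most 0.191 TPM in every group.

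**Figure D3:**
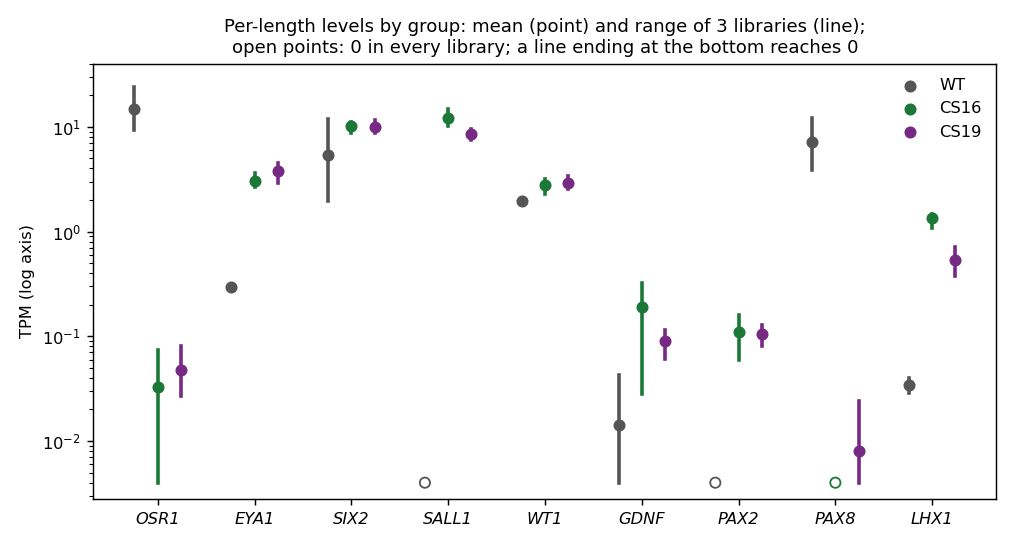
Points are mean TPM on a log axis for each regulator in WT, CS16 and CS19, and lines give the range of the 3 libraries, with open points for groups at 0. OSR1 and PAX8 were at 14.8 and 7.20 TPM in WT and under 0.05 TPM in the clones, whereas SALL1 went from 0 to 12.2 and 8.58 TPM.

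The clones were also compared with each other, which asks whether the 2 lines carry the same levels. Of the regulators 5 had enough counts, and 0 were called at the fold threshold, beside 1.13% of the 17538 genes tested. By adjusted p alone 3 of the 5 differed, beside 27.4% of all genes. SALL1 was higher in CS16 by 0.46 ± 0.09 on the log2 scale (SE, adjusted p = 0.00138, edgeR), and LHX1 was higher in CS16 by 1.32 ± 0.27 (SE, adjusted p = 0.00268, edgeR). EYA1 was higher in CS19, with a log2 difference of CS16 minus CS19 of -0.33 ± 0.12 (SE, adjusted p = 0.0491, edgeR). For these 3 genes, which were picked by this test, the libraries of the clones did not overlap. In a shared fit of all 3 groups the adjusted p rose to 0.201 for SALL1, 0.434 for EYA1 and 0.0319 for LHX1 (edgeR), so that of these only LHX1 stayed under the p threshold. WT1 differed by -0.12 ± 0.12 and SIX2 by 0.01 ± 0.13 on the log2 scale (SE, adjusted p = 0.519 and 0.957, edgeR), and their libraries overlapped.

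Genes whose profile over the 9 libraries was most like that of a regulator were ranked by the root mean square difference of log2 CPM, each profile centred on its own mean, over 17136 genes. The nearest to SALL1 were POU3F3, a POU homeobox factor of the early nephron, at 0.062, and TSPAN7, a tetraspanin, at 0.106. The nearest to PAX8 were MVP, which forms the vault particle, at 0.204 and OPLAH, a glutathione cycle enzyme, at 0.244. OSR1 lay nearest to ALPP, a placental alkaline phosphatase, at 0.296 and APOL1, an apolipoprotein, at 0.297. EYA1 lay nearest to the interleukin receptor gene IL6R at 0.129 and GAREM2 at 0.131, and LHX1 to CLVS2 at 0.240 and CSAG4 at 0.286. For WT1 the nearest were FNDC4 at 0.0238 and TOX4 at 0.0475, and for SIX2 CILP2 at 0.160 and DUSP8, a dual specificity phosphatase, at 0.174. Among the regulators themselves, PAX8 and OSR1 differed by 0.453, EYA1 and LHX1 by 0.673 and WT1 and SIX2 by 0.769, while PAX8 and SALL1 differed by 7.06. Where a group lies at or near 0, as SALL1 does in WT and PAX8 and OSR1 do in the clones, these distances and ranks depend on the prior count of 2 added before taking logs. These values describe 9 libraries in 3 groups, and genes with the same group pattern are close by this measure.

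The nearest protein-coding genes on either side of each regulator were described as well. Of 18 such neighbours, 16 were tested and 3 were called, beside 26.9% of all genes tested, so calls were no more common among the neighbours than over all genes. PSD4, 6.6 kb from PAX8, was lower (log2 fold change -2.45, adjusted p = 7.2e-07, edgeR), while ZNG1B on the other side was not called. XKR9 was lower and MSC, a basic helix-loop-helix factor at 0 in all 3 WT libraries, was higher on opposite sides of EYA1. The neighbours of SALL1, OSR1, SIX2, LHX1, WT1, PAX2 and GDNF were not called or not tested, so SALL1 lay between tested neighbours that were not called.

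The partners of the regulators in kidney development were followed in lists by stage. Across the 5 stage lists, 79 genes were tested and 63 were called, 41 higher and 22 lower, beside 26.9% of all genes tested (12.6% higher and 14.3% lower). The lists were chosen with earlier results known, and these shares describe them only. In these lists and those below, genes at or near 0 in 1 group passed the count filter through the other group alone. Such genes could be called in 1 direction only. Of 18 tested genes of GDNF-RET signalling and the ureteric bud, 10 were higher and 7 lower, with a median log2 fold change of 2.95. The receptor genes of GDNF were among those that rose. RET had 3 counts in all WT libraries and 6.69 ± 0.734 CPM (SD, n = 3) in CS16 and 4.31 ± 0.727 in CS19, a ratio of 103.7 over both clones (95% interval 35.3 to 503.9, counting error only). GFRA1, the co-receptor that binds GDNF, went from 0.176 ± 0.108 CPM in WT to 3.33 ± 0.156 in CS16 and 16.7 ± 0.717 in CS19, and the difference of CS16 minus CS19 was -2.34 ± 0.11 on the log2 scale (SE, adjusted p = 1.177e-08, edgeR). NCAM1, an adhesion molecule that can also bind GDNF with GFRA1, went from 0.0330 CPM in WT to 50.5 and 41.3 CPM, and ROBO2, the SLIT receptor that restricts GDNF expression, was at 0 in WT and at least 94.7-fold higher in the clones. ETV4, a target of RET signalling, fell by 6.93 on the log2 scale (SE 0.25, adjusted p = 1.341e-09, edgeR), and the keratin KRT8 fell by 8.32 (SE 0.28, adjusted p = 9.88e-10, edgeR). GATA3, which maintains RET in the duct, also fell, by 2.89 (SE 0.40, adjusted p = 6.46e-05, edgeR), and without WT replicate 2 its log2 fold change was -1.95, just short of the call. KRT8, KRT18 and GATA3 are luminal breast markers as well.

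Of 23 tested genes of the metanephric mesenchyme and nephron progenitors, 16 were higher and 1 was lower, with a median log2 fold change of 4.79. In WT, HOXA11, HOXC11, HOXD11 and BMP7 had 0 counts. ITGA8, NPNT, FGF9, SALL4, TMEM100 and MEOX1 had 1 or 2 counts over all WT libraries. These genes passed the count filter through the clone libraries alone and could be called only as higher, which bears on both the count and the median. The HOX11 paralogs, which act with EYA1 and PAX2 on GDNF and SIX2, were at 0 in every WT library. HOXA11 was at 27.9 ± 1.97 CPM (SD, n = 3) in CS16 and 41.5 ± 2.37 in CS19, at least 219.7-fold higher over both clones, HOXC11 at least 64.1-fold and HOXD11 at least 67.4-fold. DACH1, a corepressor that works with EYA1, rose by 6.24 ± 0.27 on the log2 scale (SE, adjusted p = 4.991e-09, edgeR). CITED1, found in the least committed progenitors, rose from 0.139 ± 0.0215 CPM, near the floor of 3 counts, to 0.778 ± 0.320 and 0.787 ± 0.435. FREM2, a basement membrane protein needed for bud outgrowth, rose by 6.14 ± 0.20 on the log2 scale (SE, adjusted p = 9.15e-10, edgeR), and BMP7, a survival signal for progenitors, was at 0 in WT and at least 412.6-fold higher in the clones. The 1 gene called lower was CDH11, a mesenchymal cadherin, at 309.0 ± 9.43 CPM in WT and 2 counts in all 6 clone libraries.

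Of 14 tested genes of the renal vesicle and early nephron, 4 were higher and 6 lower, with a median of -0.61. WNT4, which triggers the vesicle, fell by 2.75 (SE 0.53, adjusted p = 0.000771, edgeR), with 6.36 ± 5.64 CPM (SD, n = 3) in WT, 0.669 ± 0.442 in CS16 and 1.21 ± 0.328 in CS19, and without WT replicate 2 its log2 fold change was -1.75 (adjusted p = 0.00431, edgeR) and it was not called. HEY1, a Notch target, rose by 8.97 ± 0.30 on the log2 scale (SE, adjusted p = 9.457e-10, edgeR) and POU3F3 was at 0 in WT and at least 111.4-fold higher, whereas the Notch ligand JAG1 fell by 4.42 (SE 0.21). Of 13 tested stromal genes, 10 were higher and 2 lower, with a median of 5.68. ALDH1A2, which makes retinoic acid, rose from 0.930 ± 0.246 CPM to 250.9 ± 15.9 in CS16 and 199.2 ± 27.8 in CS19, and MEIS1, a homeobox cofactor, rose from 0.989 ± 0.245 to 46.8 ± 4.64 and 61.5 ± 2.75. LGALS1, a galectin that is also a marker of mesenchymal breast lines, fell by 8.03 (SE 0.18) and PDGFRB, a receptor of stromal and mural cells, fell by 6.16 (SE 0.50). Of 11 tested genes of differentiated podocytes and tubules, 1 was higher and 6 lower, with a median of -3.00. The gene that rose was LRP2, the endocytic receptor megalin, by 7.89 ± 0.57 on the log2 scale (SE, adjusted p = 2.834e-07, edgeR), and the water channels AQP1 and AQP3 fell by 5.67 (SE 0.31) and 3.00 (SE 0.17).

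Within their own gene families, 22 of 33 paralogs were tested, 12 were higher and 2 lower, beside 12.6% and 14.3% of all genes tested, and their median was 2.08. Several of these paralogs also stand in the stage lists. The tested paralogs of the regulators that were lower went the other way. PAX3, a factor of neural crest and muscle precursors, was at 0 in WT and at least 188.4-fold higher in the clones. It passed the count filter through the clone libraries alone, so it could be tested only as higher. PAX6 rose by 6.03 ± 0.47 (SE, adjusted p = 5.5e-07, edgeR) and PAX9 by 4.04 ± 0.32 (SE, adjusted p = 6.266e-07, edgeR). Of 7 PAX paralogs, 3 were tested, and these 3 were higher where PAX8 was lower. PAX5, like PAX2 and PAX8 a member of their subgroup, was at 0.198 ± 0.146 CPM (SD, n = 3) in WT, 0.186 ± 0.137 in CS16 and 0.132 ± 0.115 in CS19. These levels lie near the floor of 3 counts, and PAX5 was not tested. OSR2 rose by 2.11 ± 0.21 (SE, adjusted p = 4.066e-06, edgeR) where OSR1 was lower, and at 1.96 without WT replicate 1 it fell just short of the call. All 3 paralogs of SALL1 were higher with it, SALL3 being at 0 in WT and at least 29.9-fold higher. EYA2 and EYA4 were called higher with EYA1, at log2 fold changes of 7.12 and 2.54, and EYA3, at 1.17, was not called. Of 5 tested LHX paralogs 3 were higher over both clones, and 2 were higher in CS16 against WT. LHX2 had 0 counts in WT and LHX8 had 1, so both passed the count filter through the clones alone. LHX9, at 2.04, fell just short of the call without WT replicate 2 (1.98) or without CS19 replicate 2 (1.96). Of 3 tested SIX-family paralogs 0 were called. Among GDNF-related ligands ARTN was lower (log2 fold change -5.98 ± 0.31 SE, adjusted p = 1.624e-08, edgeR). NRTN, at 1.77, was not called, but without WT replicate 2 it was called higher at 2.26. Among the EGR genes, whose zinc fingers resemble those of WT1, EGR1 was lower (-2.99 ± 0.55 SE, adjusted p = 0.000533, edgeR), but without WT replicate 2 its log2 fold change was -1.46 and it was not called.

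**Figure D4:**
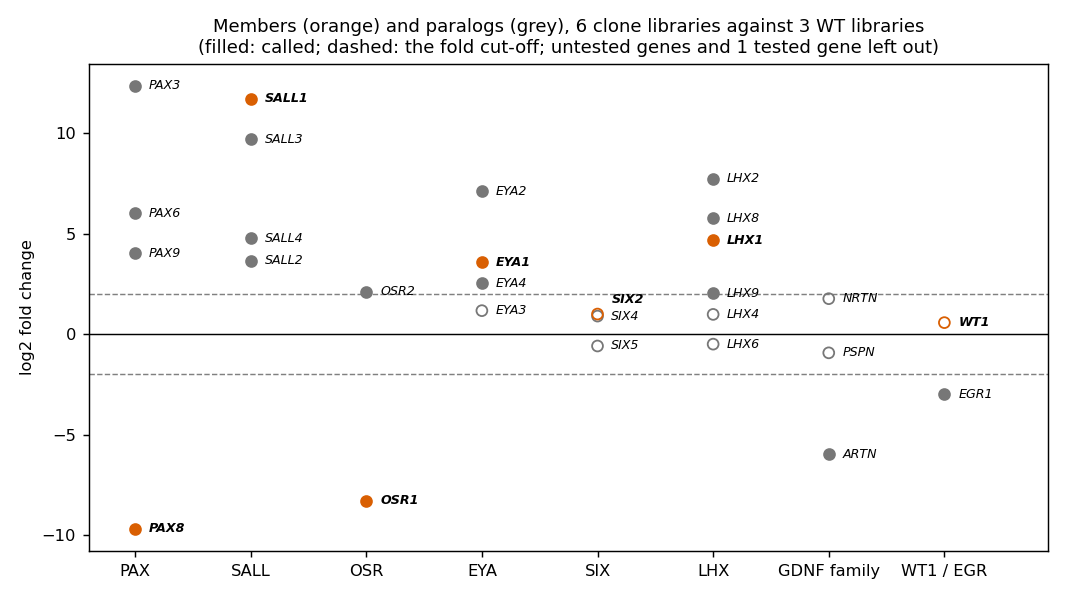
Points are log2 fold changes of the family members shown in the 6 clone libraries against WT, with the regulators in orange, their paralogs in grey, filled points for called genes and dashed lines at the fold threshold. PAX8 and OSR1 lay below the lower line while their tested paralogs lay above the upper line. PAX3, SALL1, SALL3 and LHX2 were at 0 in WT and passed the count filter through the clones alone, so their height depends on the prior count.

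Markers of other cell types were counted beside the regulators, with 26.9% of all genes tested called (12.6% higher and 14.3% lower). Of 10 tested luminal mammary markers 1 was higher, FOXA1, and 7 lower, and of 5 tested basal and myoepithelial markers 0 were higher and 4 lower. Of 8 tested neural markers 4 were higher and 3 lower, of 3 haematopoietic markers 1 was higher and 2 lower, of 4 tested prostate markers 1 was higher, HOXB13, and 2 lower, and the 1 tested hepatocyte marker, SERPINA1, was lower. The neural marker CHGA, at a log2 fold change of 1.05, was not called, but without WT replicate 2 it was called higher at 2.10. NEFL, a neurofilament chain among the 4 neural markers that were higher, was at 0 in WT and at 103.4 CPM on average over the clone libraries. In a fit with no filter, the neural markers MAP2, TUBB3 and ENO2 fell by 4.92, 3.36 and 3.69 on the log2 scale. Beside the 0 to 3 counts of OSR1 and 0 to 2 of PAX8 in the clone libraries, S100A6, with at least 48439 counts in each WT library, held 0 or 1 there.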

How the data were processed

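Total RNA depleted of ribosomal RNA was made into stranded paired-end libraries. Per the submitters' processing notes and the study's methods, the authors trimmed reads with Trimmomatic 0.36, aligned them with STAR 2.7.2b to GRCh38.p13 with gencode 38, and made the deposited counts, whole numbers of read pairs per gene, with featureCounts of Subread 2.0.0, keeping pairs of mapping quality 30 or more. Strand was not used, and pairs touching more than 1 gene were not counted, which lowers the count of genes with overlapping partners. From these counts, edgeR 4.0.16 (R 4.3.3) gave TMM factors, the filterByExpr selection and quasi-likelihood tests on the whole table, with Benjamini-Hochberg adjustment over all genes tested, and a gene was called when its adjusted p was under 0.05 and its log2 fold change at least 2 in size. CPM used the TMM-scaled library size and TPM the exon length in the deposited tables. Each SE was derived from the fold change and its F statistic. Identifiers were named with the reference gene tables, antisense partners and neighbours with gencode 44, and 60463 of 60708 genes had a symbol.

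Samples were grouped by title into WT, CS16 and CS19. Each clone was compared with WT and with the other clone in a fit of those 6 libraries, and both clones together with WT in a fit of 9. The regulators and all gene lists were chosen with earlier results of these data known. The lists covered GDNF-RET signalling and ureteric bud, metanephric mesenchyme and nephron progenitors, renal vesicle and early nephron, renal stroma, differentiated podocyte and tubule, paralogs of the regulators, and markers of mesenchymal basal breast lines, luminal and basal mammary cells, neural, haematopoietic, hepatocyte and prostate cells and the 9p21 locus. From each kidney and paralog list the text names up to 2 genes called higher and 2 called lower with the smallest p, besides fixed direct partners of the regulators, the 2 nearest profiles, overlapping genes and nearest neighbours. A few genes that this rule names are not reported here, although counts over lists include them. Genes outside that rule (VIM, CD44, S100A6, MSN, FN1, SPARC, NEFL, MAP2, TUBB3, ENO2, CHGA, FOXA1, HOXB13, SERPINA1, PAX9, OSR2, EYA2, EYA3, EYA4, KRT18, LHX2, LHX8, LHX9, NRTN, ITGA8, NPNT, FGF9, SALL4, TMEM100 and MEOX1) were named after their values were seen. Counts were also simulated with the same spread in all libraries and with changes in well-counted genes only. In each comparison, 200 of 200 genes changed by 3 or by 5 on the log2 scale were recovered, with 0 false calls. This simulation does not cover genes with few counts, such as PAX2 and GDNF, or the spread of WT replicate 2. Alternatives were DESeq2 1.42.0, RLE and upper-quartile scaling, other count filters and call rules, a replicate block, a shared fit and leaving out each library. Figures were drawn with matplotlib 3.10.9.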

Additional observations from a re-analysis of the deposited data

Results flagged for a closer look

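In the 6 clone libraries PAX8 was at 0 in all but CS19 replicate 3, which held 2 counts, so the gap from that library to the rest made up the whole range (ratio 1.0). The cut-off for this ratio marks about 1 in 20 groups by chance for continuous values, but with 5 libraries at 0 the ratio is 1.0 by construction, and 2 counts lie under the floor of 3.

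CS16 and CS19 differed by a direct test at several genes. As log2 differences of CS16 minus CS19, the regulators gave 0.46 for SALL1, -0.33 for EYA1 and 1.32 for LHX1, all below the fold threshold. Genes of the kidney lists that passed it were the GDNF co-receptor gene GFRA1 at -2.34, the homeobox gene MEOX1 at 2.43, the matrix protein gene NPNT at -5.0, the cyclin gene CCND1 at 2.99, the collagen gene COL3A1 at 3.17, the podocyte glycoprotein gene PODXL at -2.01 and the podocyte phosphatase gene PTPRO at 3.68. Each adjusted p from edgeR was at most 0.0491, in 3 libraries against 3. The genes were listed because they passed this test, so the lack of overlap between the clones at each of them adds no support. Over all genes tested, 27.4% had an adjusted p below 0.05 and 1.13% also passed the fold threshold.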

How the results depend on the processing

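The 5 regulators called against WT kept direction and call under the 9 alternatives and on leaving out each library. Without WT replicate 2, SIX2 was called as well, in all 3 comparisons with WT. Counts of all genes called moved with the call rule and the filter. Over both clones 5272 became 8662 with no filter, 12506 with no fold threshold and 9251 at a log2 fold of 1. For CS16, 5045 became 10342 and 8567 under the latter 2, and for CS19, 4990 became 7513, 10014 and 8309 under all 3. Between the clones, 198 became 352, 4814 and 833, and regulators called rose from 0 to 3 with no fold threshold and to 1 at a log2 fold of 1. Of the regulators, the SIX2 difference between the clones reversed in sign, from 0.01 to -0.0156 with upper-quartile scaling, and ranged from -0.0482 to 0.0884 on leaving out 1 library. Between the clones, the adjusted p of EYA1 ranged from 0.0326 to 0.434 and that of SALL1 from 0.000216 to 0.201 over the other settings, both highest in the shared fit of 3 groups. DESeq2 called 7640 genes over both clones, and regulators below the filter could be tested with no filter and with DESeq2. In each of these settings 7 of the 9 regulators were called over both clones, 5 higher and 2 lower. That stood beside 7640 (DESeq2) and 8662 (no filter) of 41910 genes with a count. The added calls were PAX2 and GDNF, from counts near the floor. Their log2 fold changes were 4.58 and 3.49 with DESeq2, and 5.39 and 3.29 with no filter. The cause of these shifts was not tested, apart from the call rules, which change by construction.

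Replicate numbers showed no pairing by this measure, since correlations of same-numbered deviations ran from -0.206 to 0.190 and those of different-numbered ones from -0.212 to 0.218. With 3 libraries in each group, it cannot show that no culture or batch was shared. With the replicate number as a block, 5220 genes and 5 regulators were called over both clones.

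Depth limits PAX2, GDNF, and PAX8 and OSR1 in the clones, where counts lay near the floor.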
